A study of Mus musculus with 8 samples.

Results

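The genes described here are 10 members of the interleukin-6 (IL-6) cytokine family and its receptor system: the ligands Il6, Lif, Il11 and Clcf1, the receptor chains Il6ra, Il6st, Lifr and Osmr, the transcription factor Stat3 and its feedback inhibitor Socs3. They were taken by symbol from the 24421 rows of a table of raw read counts, and all 10 were found there. The counts come from poly(A)-selected RNA of a cancer cell line of male mouse pancreas that the labels call KPCY. In the knockdown, 4 libraries came from cells carrying a stable lentiviral inhibitor of the microRNA miR-27a-3p. In the scrambled control, 4 libraries came from cells carrying a lentiviral scrambled sequence. All 8 libraries shared puromycin selection at 2 µg/mL for 7 days, medium with 4.5 g/L glucose and 10% serum, and RNA isolation 24 hours after seeding. Each group was a population of puromycin-resistant cells, and the labels do not say whether its 4 libraries came from separate transductions. The p-values below therefore measure the spread between these libraries, which may be technical.

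Cytokines of the IL-6 family signal through receptor complexes that share the chain gp130, encoded by Il6st. IL-6 and IL-11 first bind their own alpha chains and then pair gp130 with itself, whereas LIF and CLCF1 join gp130 to the LIF receptor, and oncostatin M joins gp130 to the chain encoded by Osmr. The assembled receptors activate JAK kinases, which phosphorylate STAT3, and SOCS3, made from a STAT3 target gene, binds gp130 and shuts the signal off. In pancreatic cancer, LIF and IL-6 are known as signals exchanged between tumour cells and the fibroblasts around them.

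MicroRNAs pair through their seed, bases 2 to 8, with short matches in 3′ untranslated regions (UTRs). The mature sequences of miR-27a-3p and its paralogue miR-27b-3p are shown because the seed defines the matches searched in the 10 genes (RefSeq, GRCm38.p6; seed in capitals, 5′ to 3′).
miR-27a-3p: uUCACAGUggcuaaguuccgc
miR-27b-3p: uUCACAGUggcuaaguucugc
Both are 21 bases long, have the same seed and differ once (C19U, miR-27a-3p first, counted from the 5′ end). They are encoded on chromosomes 8 and 13.

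Lifr carried the most 8mer and 7mer-m8 matches among the 10 genes, in the longest GENCODE M21 3′ UTR of each (GRCm38). An 8mer is ACTGTGAA, a 7mer-m8 is ACTGTGA not followed by A, a 7mer-A1 is CTGTGAA not preceded by A, and a 6mer is the core CTGTGA alone. The 6320-base UTR of Lifr held 2 8mers, 3 7mer-m8 matches and 2 6mers. Its 5 longest matches are printed with the match in capitals, together with the match of Lif, the ligand of the LIF receptor, and the longest match of Il6st.
Lifr chr15:7193756-7193762 (+), 7mer-m8: gtcgggggtcACTGTGAgagaagagccta
Lifr chr15:7193820-7193826 (+), 7mer-m8: atcaggggtcACTGTGAgagaagagccta
Lifr chr15:7193884-7193890 (+), 7mer-m8: gtcaggggtcACTGTGAgagaaaagccta
Lifr chr15:7195064-7195071 (+), 8mer: tgtgagggaaACTGTGAAgactcatcagg
Lifr chr15:7196787-7196794 (+), 8mer: agacacacatACTGTGAAcagatctaagt
Lif chr11:4270680-4270686 (+), 7mer-m8: tctgtctcccACTGTGActcacttttagg
Il6st chr13:112506456-112506462 (+), 7mer-A1: agacagtggtgCTGTGAAcgttgcagtgt
The 3 7mer-m8 matches of Lifr lay 64 bases apart, and each printed window differed from the next at 2 positions, so they sit in a repeated stretch.

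Among the other members, the 3′ UTR of Il6ra held 3 7mer-A1 matches, that of Stat3 held 1, and none of the 6-base core was found in Il6, Il11, Clcf1, Osmr or Socs3. Of the 11365 tested genes with an annotated 3′ UTR, 32% held a match of 7 or 8 bases and 0.422% held at least 2 8mers. At least as many 8mer and 7mer-m8 matches as Lifr were held by 0.0616% (7 genes, Lifr included). The median UTR was 1383 bases for all these genes, 3144 for those with at least 2 8mers and 16999 for the 7 genes. That of Lifr was 6320 bases, and the shares make no allowance for UTR length. A match is a string of letters and no measure of binding. The counts do not separate transcripts, and shorter annotated transcripts of Lifr lack this UTR.

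Library totals ran from 19165513 to 21735023 counts in the knockdown and from 20021056 to 23542275 in the scrambled group. A count of 0 allows up to 3 counts, which is 0.1286 to 0.1554 CPM here (CPM is the count scaled to the size of its library), and this limit covers counting error only. Scrambled replicate 2 stood apart: the chi-square per gene was 5.186 to 5.357 for its pairs, 1.803 to 2.35 for the other scrambled pairs and 1.731 to 1.957 within the knockdown. All 6 markers of ductal epithelial cancer cells (Krt7, Krt8, Krt18, Krt19, Epcam and Cdh1) averaged 1 CPM or more, summing to 11300 to 11630 CPM in knockdown and 10630 to 11600 CPM in scrambled cells. Epcam was the lowest of them, at 5.62 ± 1.16 CPM in knockdown and 7.15 ± 1.80 CPM in scrambled cells. The summed level of 7 fibroblast markers was 0.725 to 1.382 CPM in the knockdown and 0.9431 to 1.408 CPM in the scrambled group, with Col1a2, Dcn, Lum, Pdgfrb and Thy1 at 0. The sum of 7 immune markers was 2.502 to 4.299 CPM in the knockdown and 3.69 to 3.981 CPM in the scrambled group, with Adgre1 and Lyz2 among those at 0. Most of that sum was Cd68, at 2.99 ± 0.503 CPM in the knockdown and 3.39 ± 0.303 CPM in the scrambled group. Of 5 acinar markers Cpa1, Cpb1, Pnlip and Cel were at 0, and Cela1 was at 2.36 ± 0.441 CPM in the knockdown and 3.29 ± 0.675 CPM in the scrambled group (SD, n = 4 each, edgeR adjusted p = 0.0297). The sum of 5 endothelial markers was 0.1824 to 0.7166 CPM in knockdown cells and 0.5341 to 1.158 CPM in scrambled cells, and within it Kdr had 15 counts in all knockdown and 58 in all scrambled libraries. The part of these markers in the results was not tested. Mir27a, the targeted locus (chr8:84208672-84208758), was at 0 in 7 libraries, with a single count in replicate 2 of the knockdown. Poly(A) libraries do not hold mature microRNAs, so these counts do not check the inhibitor.

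Of the members called in the test, the receptor chain Lifr differed most. Knockdown cells had 1.78-fold less Lifr mRNA and 1.16-fold more Il6st, and Osmr was close to the detection limit in them. The ligand Lif was slightly higher and Clcf1 slightly lower, and Stat3 and Socs3 did not pass the test. Of the 10 members, 7 passed the filter on low counts and were tested with edgeR's quasi-likelihood test, and Il6, Il11 and Osmr did not pass that filter. At a Benjamini-Hochberg adjusted p under 0.05, 2 members were called higher (Lif and Il6st), 2 lower (Lifr and Clcf1) and 3 neither. Without scrambled replicate 2, 2 members were called higher and 3 lower, since Osmr then passed the filter, through its scrambled libraries alone. The same test called 47.9% of the 11797 genes tested, 23.8% higher and 24.1% lower. The share of the 7 tested members called, 57.1%, is near that background, so the number of calls by itself is no result about the family. The CPM of the groups did not overlap for 2 of the 7 tested members, Il6st and Lifr, against 42.2% of all genes tested. The median log2 fold change was 0.01 for the tested members and 0.0017 for all genes tested, and the median absolute log2 fold change was 0.166 for the members and 0.133 for all genes. In such bulk RNA, fewer cells expressing a gene and less RNA per cell cannot be told apart.

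**Figure D1:**
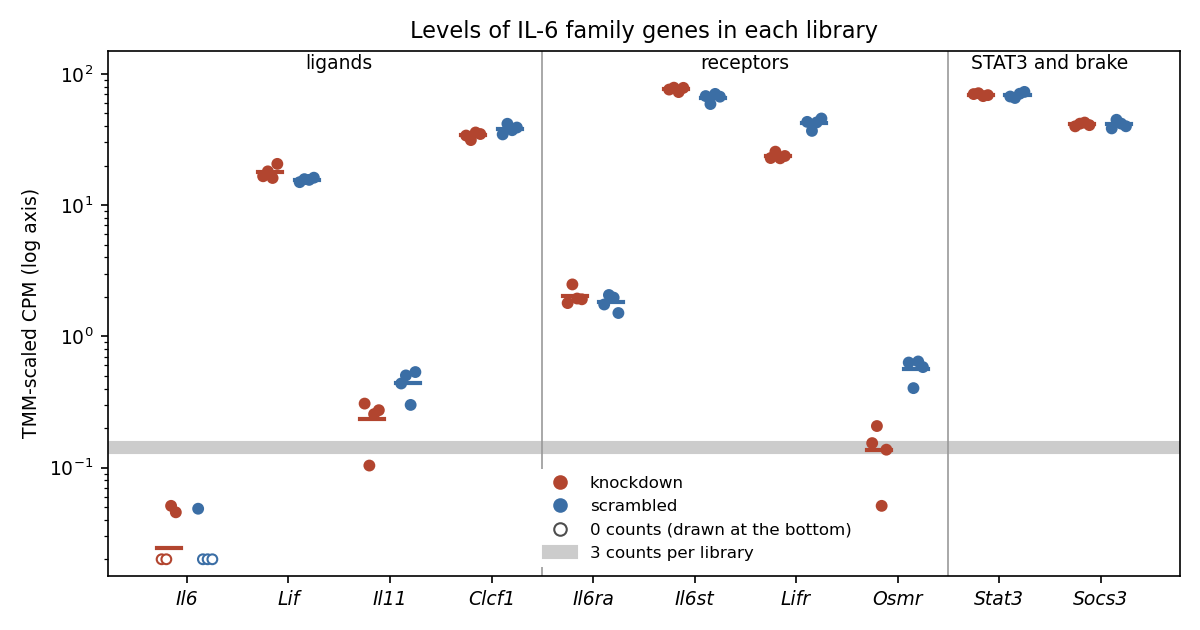
Level of each of the 10 genes in each library (points, TMM-scaled CPM on a log axis) with the group mean as a bar, knockdown left of scrambled, and the range that 3 counts per library stand for as a grey band. Knockdown libraries lie below all scrambled libraries for Lifr (22.7 to 25.5 CPM, against 36.8 to 45.7 CPM) and above them for Il6st (72.6 to 78.5 CPM, against 58.9 to 70.4 CPM), and Il6 lies below the band in all 8 libraries.

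Among the ligands, Lif and Clcf1 were expressed, Il11 had few counts and Il6 next to none. Lif (chr11:4257557-4272514, plus strand), which keeps mouse embryonic stem cells undifferentiated and signals through LIFR and gp130, had 16.6, 18.1, 16.1 and 20.6 CPM in the 4 knockdown libraries, against 14.95, 15.8, 15.6 and 16.2 CPM in the scrambled libraries. The groups overlapped only at their edge, where knockdown replicate 3 lay below scrambled replicate 4, and knockdown replicate 4 was the highest. Lif averaged 17.8 ± 2.03 CPM in knockdown cells and 15.6 ± 0.506 CPM in scrambled cells (SD, n = 4 each), a log2 fold change of 0.20 (SE 0.0756, 95% interval 0.0393 to 0.353, adjusted p = 0.0366 by edgeR's quasi-likelihood test). A change at least this large in either direction was seen in 34.9% of all genes tested. The call was lost without knockdown replicate 2 (log2 fold change 0.19, edgeR adjusted p = 0.0751), knockdown replicate 4 (0.12, adjusted p = 0.213), scrambled replicate 1 (0.18, adjusted p = 0.0881) or scrambled replicate 3 (0.20, adjusted p = 0.0646), and with DESeq2 (0.19, adjusted p = 0.0771).

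Clcf1 (chr19:4214238-4223490, plus strand), a ligand that signals through LIFR and gp130, had 33.9, 31.3, 35.7 and 34.8 CPM in knockdown cells, against 34.6, 41.7, 37.2 and 39.0 CPM in scrambled cells. The lowest scrambled library, replicate 1, lay within the knockdown range. The gene averaged 33.9 ± 1.92 CPM in knockdown and 38.1 ± 2.98 CPM in scrambled cells (SD, n = 4 each), a log2 fold change of -0.17 (SE 0.0566, 95% interval -0.283 to -0.0484, adjusted p = 0.0192, edgeR). Without knockdown replicate 2 the log2 fold change was -0.13 and the edgeR adjusted p 0.0862. Clcf1 shares 311 exon bases with the protein-coding gene AC109138.7 on the same strand, so reads there are uncertain. Its 20 nearest tested neighbours had a median log2 fold change of 0.154, with 11 called higher and 0 called lower, and 2 of the 20 lay below Clcf1.

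Il6 (chr5:30013114-30019981, plus strand), the founding cytokine of the family, had 0, 0, 1 and 1 counts in the knockdown libraries and 1, 0, 0 and 0 counts in the scrambled libraries. All 8 libraries were within the 3 counts that a count of 0 allows, so no difference in Il6 was detectable at this depth. Il11 (chr7:4772373-4782859, minus strand), whose product binds IL11RA and gp130, had 6, 2, 5 and 6 counts in knockdown libraries and 9, 10, 7 and 11 counts in scrambled libraries. On the CPM scale the groups overlapped, with 0.235 ± 0.0901 CPM in knockdown and 0.444 ± 0.104 CPM in scrambled cells (SD, n = 4 each). The ratio of summed levels, knockdown over scrambled, was 0.539, with an exact 95% counting interval of 0.293 to 0.962 that leaves out the spread between libraries. When the filter was dropped, edgeR's adjusted p for Il11 was 0.173, and DESeq2's was 0.229.

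Among the tested receptors, Lifr differed most. Lifr (chr15:7090614-7197489, plus strand) encodes the chain that binds LIF and pairs with gp130. It had 22.8, 25.5, 22.7 and 23.7 CPM in knockdown cells, against 43.1, 36.8, 42.7 and 45.7 CPM in scrambled cells. Every knockdown library lay below every scrambled library, and scrambled replicate 2 was the lowest of its group. Lifr averaged 23.7 ± 1.30 CPM in knockdown and 42.0 ± 3.77 CPM in scrambled cells (SD, n = 4 each), and 43.8 ± 1.65 CPM in scrambled cells without replicate 2 (n = 3). The log2 fold change was -0.83 (SE 0.0616, 95% interval -0.957 to -0.701, edgeR adjusted p = 2.13e-10), and 498 of the tested genes (4.22%) changed at least as much in either direction. Lifr remained called when tested against a fold of 1.2 and when any 1 library was left out, where the log2 fold change ran from -0.89 to -0.79.

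Lifr, whose printed UTR matches numbered 5, was set beside other tested genes with matches. Whether these matches have a part in the level of Lifr was not tested. Of the 48 tested genes with at least 2 8mers, 7 were called higher, 9 lower and 32 neither, with a median log2 fold change of 0.000156. Of the 7 genes with at least as many 8mer and 7mer-m8 matches as Lifr, itself included, 1 was called higher and 1, Lifr, lower. Lif, Il6st and Stat3, with 1 match of 7 bases each, had log2 fold changes of 0.20, 0.21 and 0.01. Il6ra, with 3 matches of 7 bases, had 0.15. Clcf1 and Socs3, without a match, had -0.17 and 0.00. Among members under the filter, none with a match, edgeR without the filter gave -2.005 for Osmr and -0.88 for Il11 (adjusted p = 0.173), and Il6 had too few counts for a fold.

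Osmr, which missed the filter on low counts, lies between Lifr and its nearest tested gene on one side, and was also lower (log2 fold change -2.005 with no filter, edgeR adjusted p = 0.00106). The 20 nearest tested genes, 10 on each side over 6.5 Mb, had a median log2 fold change of -0.00521, with 5 called higher, 6 lower and none below Lifr. On the side of Osmr, the nearest tested gene, Rictor, had a log2 fold change of 0.08 (edgeR adjusted p = 0.179), and on the other, Egflam, -0.34 (SE 0.365, adjusted p = 0.47). The median of the 473 other tested genes of chromosome 15 was -0.0474.

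**Figure D2:**
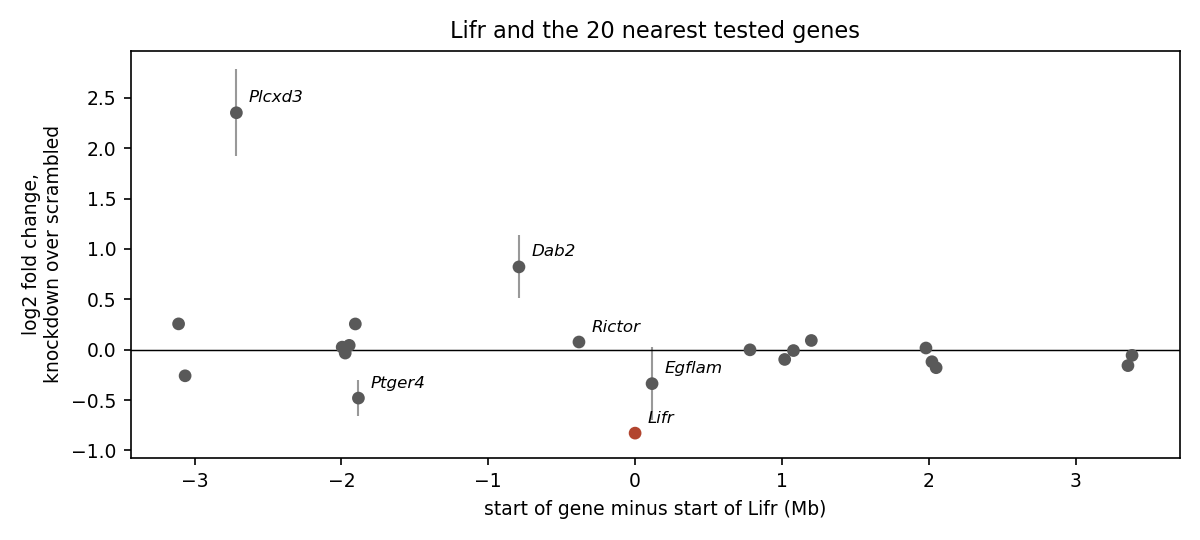
Log2 fold change, knockdown over scrambled, with its SE, of Lifr and its 20 nearest tested genes on chromosome 15, against the distance of each gene's start from that of Lifr in Mb, with 5 neighbours labelled. Lifr, at -0.83, lies below all 20 neighbours, whose median is -0.00521.

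Osmr (chr15:6813577-6874969, minus strand) lies 215.6 kb from Lifr on the opposite strand and encodes the chain that pairs with gp130 for oncostatin M. It had 3, 4, 1 and 3 counts in knockdown libraries and 13, 8, 15 and 12 counts in scrambled libraries. All knockdown libraries lay below all scrambled libraries, and 3 of the 4 knockdown libraries were at or under 3 counts. The level was 0.137 ± 0.0648 CPM in knockdown and 0.565 ± 0.111 CPM in scrambled cells (SD, n = 4 each), and the ratio of summed levels, knockdown over scrambled, was 0.241 (exact 95% counting interval 0.113 to 0.47). Osmr missed the filter on low counts. With no filter, edgeR gave a log2 fold change of -2.005 and an adjusted p of 0.00106, and DESeq2 gave -2.05 and 0.00465. Without scrambled replicate 2, Osmr passed the filter and was called (log2 fold change -2.13, edgeR adjusted p = 0.000373). It was also called in each fit that left out 1 knockdown library (adjusted p = 0.00136 to 0.0047). In all these fits Osmr passed the filter only through the scrambled libraries, where it was higher. These calls are therefore no separate support for the difference.

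Il6st (chr13:112464070-112510086, plus strand), the gp130 gene, had 75.9, 78.5, 72.6 and 78.2 CPM in knockdown cells, against 67.7, 58.9, 70.4 and 67.0 CPM in scrambled cells. All knockdown libraries lay above all scrambled libraries, and scrambled replicate 2 was again the lowest. The gene averaged 76.3 ± 2.72 CPM in knockdown and 66.0 ± 4.96 CPM in scrambled cells (SD, n = 4 each), a log2 fold change of 0.21 (SE 0.0454, 95% interval 0.114 to 0.302, edgeR adjusted p = 0.000625). Without scrambled replicate 2 the scrambled mean was 68.4 ± 1.76 CPM (n = 3), and the log2 fold change was 0.16 at its lowest over the fits that left out 1 library, with an adjusted p of 0.00417 at most over these fits. A change at least as large was seen in 32.8% of tested genes. The 3 tested genes whose log2 CPM followed Il6st most closely over the 8 libraries were Kdm1b (Pearson r = 0.995), D830031N03Rik (r = 0.988) and Lyst (r = 0.986). The 8 points share the difference between the groups and include scrambled replicate 2, which stood apart, so these values are a description.

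Il6ra (chr3:89864059-89913196, minus strand), the alpha chain that binds IL-6, had 1.79, 2.49, 1.94 and 1.91 CPM in knockdown cells, against 1.75, 2.06, 1.97 and 1.51 CPM in scrambled cells. The groups overlapped, at 2.03 ± 0.309 CPM in knockdown and 1.82 ± 0.250 CPM in scrambled cells (SD, n = 4 each). Its log2 fold change of 0.15 had a 95% interval of -0.231 to 0.537 (edgeR adjusted p = 0.521), wide enough to hold a change of the size of the Il6st one in either direction. It was 0.05 without knockdown replicate 2 and 0.07 without scrambled replicate 4. Il6ra shares 242 exon bases with the antisense gene Gm42809.

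The balance of receptor chains within each library was described by the ratio of counts per exon base. Lifr over Il6st was 0.310, 0.335, 0.322 and 0.312 in knockdown libraries, against 0.655, 0.643, 0.6245 and 0.702 in scrambled libraries. The groups did not overlap, and scrambled replicate 2, low for both genes, lay within the range of its group. The ratio averaged 0.320 ± 0.0117 in knockdown and 0.656 ± 0.0332 in scrambled cells (SD, n = 4 each). Lif over Lifr, the ligand against its own receptor, averaged 1.87 ± 0.196 in knockdown and 0.926 ± 0.0927 in scrambled cells. Il6ra over Il6st averaged 0.0342 ± 0.00465 in knockdown and 0.0358 ± 0.00685 in scrambled cells, a difference smaller than the spread between libraries.

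**Figure D3:**
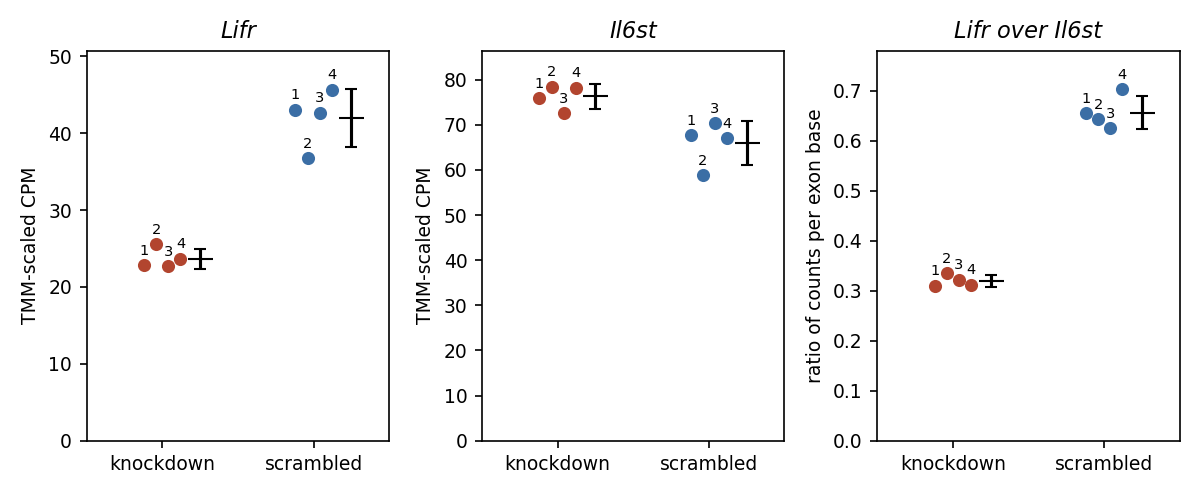
Lifr and Il6st in TMM-scaled CPM and their ratio per exon base, in 3 panels, with points numbered by replicate and bars for the mean and SD of each group (n = 4). The knockdown libraries lie below the scrambled ones for Lifr and for the ratio and above them for Il6st, and scrambled replicate 2 is the lowest of its group for both genes but not for the ratio.

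Stat3 and Socs3, the transducer and its feedback inhibitor, had close means in both groups. Stat3 (chr11:100885098-100939540, minus strand) had 70.1, 71.2, 67.7 and 68.8 CPM in knockdown cells, against 67.2, 65.5, 70.6 and 72.9 CPM in scrambled cells. It averaged 69.5 ± 1.54 CPM in knockdown and 69.0 ± 3.33 CPM in scrambled cells (SD, n = 4 each), a log2 fold change of 0.01 (95% interval -0.072 to 0.0882, edgeR adjusted p = 0.882). The scrambled libraries spanned the whole knockdown range. Socs3 (chr11:117966079-117970047, minus strand) had 39.8, 41.7, 42.5 and 40.7 CPM in knockdown cells, against 38.4, 44.7, 41.8 and 39.9 CPM in scrambled cells. Here too the knockdown values lay inside the scrambled range, with averages of 41.2 ± 1.19 CPM in knockdown and 41.2 ± 2.71 CPM in scrambled cells (SD, n = 4 each). The log2 fold change of Socs3 was 0.00 (95% interval -0.101 to 0.102, edgeR adjusted p = 0.994). Stat3 shares 72 exon bases with Stat5a on the opposite strand. Messenger RNA levels of Stat3 say nothing of its phosphorylation.

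The STAT motif TTCNNNGAA reads the same on both strands and was searched around the start sites of the members. The Socs3 promoter is shown because Socs3 is the feedback target of STAT3 (RefSeq, GRCm38.p6, motif in capitals).
Socs3 promoter chr11:117969502-117969530 (-): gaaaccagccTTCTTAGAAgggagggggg
The motif starts 154 bases before the RefSeq start site, and its presence is no measure of binding. It lies inside the GENCODE span of Socs3 given above, which begins farther upstream. Among 11 windows of 9 members, from 250 bases before to 50 after each start, only that of Socs3 held it, against 8.298% of 32851 windows of all genes. The stricter TTCCNGGAA, a subset of the first motif, was in none of the members' windows and in 1.148% of all windows.

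Per kilobase of exon, the 4 highest members came in the same order in both groups. Socs3 was highest at 14.3 ± 0.412 CPM per kb in knockdown and 14.2 ± 0.936 CPM per kb in scrambled cells. Clcf1 followed at 8.91 ± 0.505 in knockdown and 10.0 ± 0.783 CPM per kb in scrambled cells, then Stat3 at 7.29 ± 0.162 in knockdown and 7.25 ± 0.349 CPM per kb in scrambled cells. Il6st came next at 6.88 ± 0.245 in knockdown and 5.95 ± 0.447 CPM per kb in scrambled cells. Lif was at 4.10 ± 0.467 and Lifr at 2.198 ± 0.121 CPM per kb in knockdown cells. In scrambled cells Lif was at 3.59 ± 0.116 and Lifr at 3.90 ± 0.3496 CPM per kb, less than 1 SD of Lifr apart. Il6ra stood at 0.235 ± 0.0357 in knockdown and 0.211 ± 0.0289 CPM per kb in scrambled cells, and Il11 at 0.113 ± 0.0433 in knockdown and 0.213 ± 0.04996 CPM per kb in scrambled cells, within the scrambled spread of Il6ra. Osmr and Il6 were lower than these in both groups.

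Genes that act with the members were described from lists of known roles, by their counts beside the background of 23.8% higher and 24.1% lower. Of 8 other ligands and cofactors of the family, 2 were tested and neither passed. Ctf1 averaged 1.73 ± 0.429 CPM in knockdown and 2.17 ± 0.564 CPM in scrambled cells (edgeR adjusted p = 0.224). Osm, the gene of oncostatin M, had 0 counts in all 8 libraries, which allows up to 0.1286 to 0.1554 CPM. Of 4 other receptors, the IL-11 receptor gene Il11ra1 alone was tested, at 5.02 ± 0.805 CPM in knockdown and 4.92 ± 0.592 CPM in scrambled cells (adjusted p = 0.898). Cntfr, the alpha chain for CLCF1, had 0 counts in the knockdown and 1 in the scrambled group.

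All 11 JAK kinases, other STATs and adaptors of gp130 were tested, of which 4 were higher, 2 lower and 5 neither (median log2 fold change 0.101). Gab1, an adaptor that links gp130 to the RAS and PI3K pathways, had 11.9, 11.5, 10.5 and 11.1 CPM in knockdown cells, against 4.18, 3.58, 4.67 and 4.18 CPM in scrambled cells. Every knockdown library was above every scrambled one, and the fold change was 2.70 (log2 1.43, SE 0.1, edgeR adjusted p = 7.73e-11). Gab1 lies on chromosome 8, whose tested genes had a median log2 fold change of 0.207, and it shares 266 exon bases with the antisense gene Gm31105. Ptpn11, the gene of the phosphatase SHP2 that docks on gp130, averaged 247 ± 2.07 CPM in knockdown and 208 ± 5.61 CPM in scrambled cells (log2 fold change 0.25, adjusted p = 3.11e-08), on chromosome 5, with a median of 0.137. Other calls, named after their values were seen, were Jak3 (higher), Stat5a and Grb2 (lower). Jak3, with a log2 fold change of 0.27, also lies on chromosome 8 and shares 404 exon bases with Insl3 on the same strand. The count of 2 called lower was 1 without knockdown replicate 3 or 4 or scrambled replicate 2, and 1 with DESeq2. With upper-quartile factors and with library totals alone, 6 were higher and 1 lower.

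Of 8 other brakes on JAK-STAT signalling, 4 were higher, 2 lower and 2 neither (median log2 fold change 0.144). Socs2, best known as an inhibitor of growth hormone signalling, had 29.2, 27.3, 29.8 and 28.3 CPM in knockdown cells, against 14.6, 13.95, 17.9 and 17.5 CPM in scrambled cells, a 1.79-fold difference (log2 0.84, edgeR adjusted p = 2.27e-09). Ptpn6, the gene of the phosphatase SHP-1, had 17.97, 17.8, 16.5 and 17.7 CPM in knockdown cells, against 32.0, 25.9, 30.9 and 30.6 CPM in scrambled cells, and was 1.71-fold lower (log2 fold change -0.77, adjusted p = 2.32e-09). Neither gene's groups overlapped. Ptpn2, a phosphatase of JAK1 and STAT proteins, averaged 46.4 ± 2.03 CPM in knockdown and 55.3 ± 1.16 CPM in scrambled cells (-0.26, adjusted p = 2.56e-05). Cish, Pias3 and Ptpn1 were also called higher, and are named after their values were seen.

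Of the 4 proteases and cofactors that release receptors and ligands from the cell surface, 1 was lower and 3 were neither (median log2 fold change -0.0365). Adam10, a metalloprotease that can shed the IL-6 receptor, had 174.95, 177, 173 and 176 CPM in knockdown cells, against 245, 235, 250.02 and 248 CPM in scrambled cells. It was 1.40-fold lower with no overlap (log2 fold change -0.48, edgeR adjusted p = 1.02e-12). Adam17, the other receptor sheddase, averaged 94.8 ± 2.54 CPM in knockdown and 93.1 ± 3.82 CPM in scrambled cells (adjusted p = 0.555). Without scrambled replicate 2, 2 genes of this list were called lower.

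Of 8 regulators of cytokine mRNA decay, 2 were higher, 1 lower and 5 neither (median log2 fold change 0.0457). Arid5a, which stabilises Il6 mRNA, averaged 18.9 ± 0.558 CPM in knockdown and 16.7 ± 1.01 CPM in scrambled cells (log2 fold change 0.18, edgeR adjusted p = 0.0254), and Zfp36, which promotes cytokine mRNA decay, 16.7 ± 0.200 CPM in knockdown and 14.6 ± 1.42 CPM in scrambled cells (0.19, adjusted p = 0.0378). Elavl1, the gene of the RNA-binding protein HuR, averaged 126 ± 1.15 CPM in knockdown and 141 ± 8.01 CPM in scrambled cells (-0.16, adjusted p = 0.000568) and shares 204 exon bases with Ccl25. The count of 2 called higher was 0 with DESeq2 and without knockdown replicate 1 or 4, and 1 without knockdown replicate 2 or scrambled replicate 1, 3 or 4.

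Of 31 STAT3 target genes, 20 were tested, with 4 higher, 4 lower and 12 neither (median log2 fold change -0.0291). Junb, an AP-1 transcription factor gene, had 149, 162, 167 and 149 CPM in knockdown cells, against 100.3, 124, 101 and 107 CPM in scrambled cells (1.45-fold, log2 0.54, edgeR adjusted p = 8.89e-09). It lies on chromosome 8 and shares 173 exon bases with Prdx2. Birc5, the survivin gene, averaged 138 ± 2.47 CPM in knockdown and 166 ± 4.77 CPM in scrambled cells (-0.27, adjusted p = 8.09e-08), and Ccnd1, the cyclin D1 gene, 1843 ± 8.44 CPM in knockdown and 2099 ± 63.8 CPM in scrambled cells (-0.19, adjusted p = 1.4e-07), with 1100 exon bases shared with Lto1. Mcl1, Myc and Lbp (higher) and Cebpb and Icam1 (lower) were the other calls, named after their values were seen. The acute-phase targets Fga, Fgb, Saa1, Saa2, Saa3, Hp, Reg3b and Reg3g had 0 counts in all libraries, and Lcn2 had 2 counts in the knockdown and 4 in the scrambled group. Lbp, also an acute-phase gene, averaged 4.25 ± 1.12 CPM in knockdown and 2.17 ± 0.438 CPM in scrambled cells (log2 fold change 0.946, edgeR adjusted p = 0.000274).

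**Figure D4:**
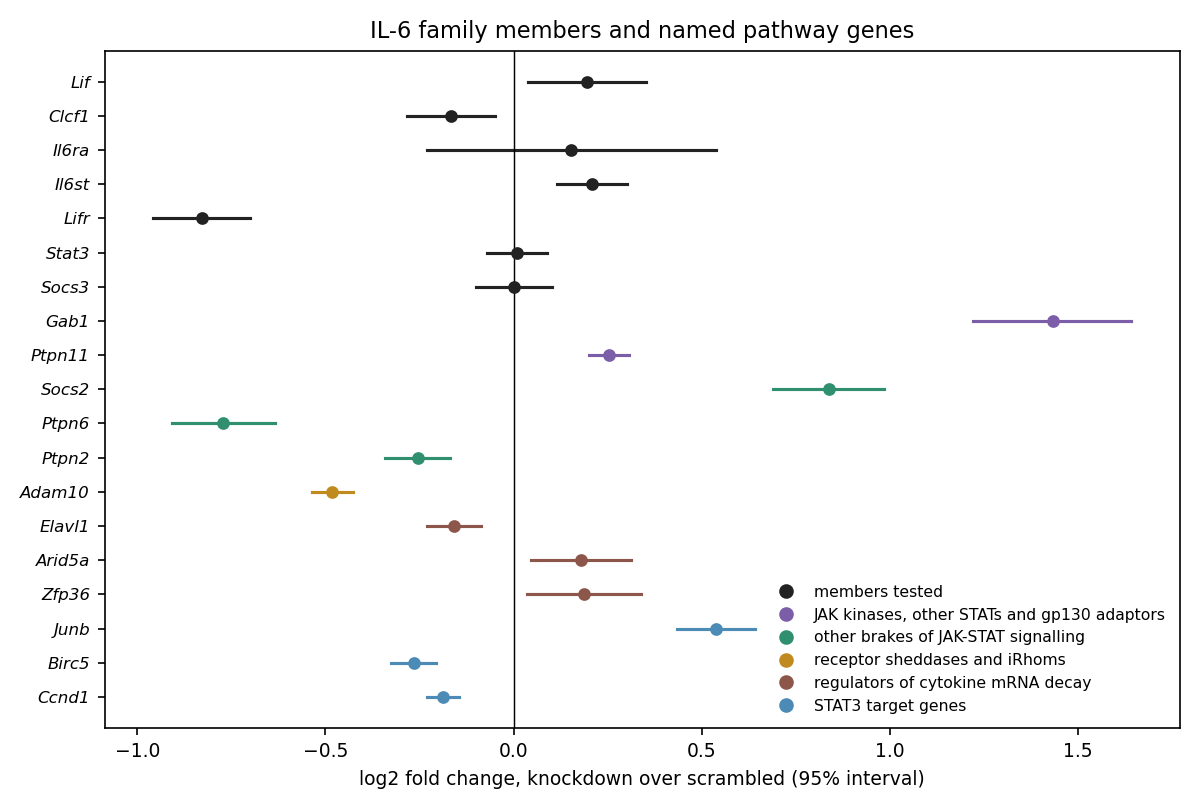
Log2 fold change, knockdown over scrambled, with its 95% interval from edgeR, for the 7 members tested (black) and the called genes named by smallest adjusted p in each list (coloured by list). Among members, Lifr lies farthest from 0 at -0.83, while the intervals of Il6ra, Stat3 and Socs3 include 0, and among list genes Gab1 lies farthest at 1.43.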

How the data were processed

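RNA of 8 KPCY libraries, 4 knockdown and 4 scrambled, was prepared with a stranded, poly(A)-selecting kit and read as paired ends of 59 bases, per the labels' protocols. The authors deposited raw read counts per gene symbol. The submitters' processing notes name build mm10 and, without their roles, STAR, Bowtie, bcl2fastq 2.20, R 4.2.1 and DESeq2 1.36.0. How reads were counted, and with which annotation and strand setting, is not given in the sources used here, so reads of overlapping and antisense genes cannot be told apart.

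These counts entered edgeR 4.0.16 under R 4.3.3 without other changes (filterByExpr with minimum count 10 and total 15, TMM factors of 0.9905 to 1.01, glmQLFit and glmQLFTest on group, adjusted p under 0.05 over 11797 genes). Levels are TMM-scaled CPM. Library totals were 19165513 to 23542275 counts, and the median biological coefficient of variation was 0.0372. No 2 libraries of the same group agreed within sampling noise, by a chi-square over genes with at least 20 counts in the pair. All deposited sample columns were used. Symbols were matched to GENCODE M21 (GRCm38), where 23309 were current, 647 were older names and 463 had no single match. Intervals and detection limits from counts cover counting error only.

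The members and gene lists were chosen with earlier results of these data known. All members were named, with up to 3 called genes of smallest adjusted p per list, the 3 genes most correlated with Il6st in log2 CPM (prior count 2) and Mir27a. Some genes that this rule or the lists take are not reported here. Alternatives were DESeq2 size factors, upper-quartile and no scaling factors, no filter, a filter of 1 CPM in 4 libraries, a replicate block, DESeq2 1.42.0, limma-voom (limma 3.58.1), a test against a fold of 1.2, an adjusted p under 0.01, and leaving out each library. The test was checked on simulated counts. Promoter sequence of Clcf1 was not used here.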

Additional observations from a re-analysis of the deposited data

Results flagged for a closer look

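The libraries of each group were compared for 46 combinations of gene and group, and 3 had a library set far from the rest of its group by Dixon's criterion, which by chance flags about 1 in 20 groups. Il6 had 0.0485 CPM (1 count) in scrambled replicate 1 and 0 in the other scrambled libraries. Any group with counts in only 1 library meets the criterion, so the flag of Il6 carries no information. Birc5 had 141 CPM in knockdown replicate 4, against 136 to 137 CPM in the other knockdown libraries. Ccnd1 had 2005 CPM in scrambled replicate 2, against 2118 to 2141 CPM in the other scrambled libraries.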

How the results depend on the processing

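Of the 7 tested members, Lifr kept its direction and its call in all 18 alternatives, with log2 fold changes of -0.89 to -0.79 (highest adjusted p 2.4e-08). Il6st was called in all but the test against a fold of 1.2. The number of members called higher, 2, was 1 with DESeq2, 1 at an adjusted p under 0.01, 0 against a fold of 1.2 and 1 to 2 when any 1 library was left out. The number called lower, 2, was 1 at an adjusted p under 0.01 and 1 against a fold of 1.2. It was 3 with no filter on low counts and 3 with DESeq2, where Osmr added a call. When any 1 library was left out it was 2 to 3, where Osmr could pass the filter, through its scrambled libraries alone. Against a fold of 1.2, 584 of all genes were higher and 523 lower. When any 1 library was left out, the log2 fold change ran from -0.01551 to 0.03505 for Stat3 and from -0.02993 to 0.04066 for Socs3, with a change of sign in 7 fits and no call. The call of Clcf1 was lost at an adjusted p under 0.01, against a fold of 1.2 and without knockdown replicate 2. The cause of these changes was not tested. List counts were equal or within 1.5 times in 227 of 252 cases. These cases include counts that were 0 in every setting, as for the other ligands and other receptors. The count of mRNA decay regulators called higher ran from 0 to 3 when 1 library was left out. The replicate numbers did not pair the libraries, since deviations of same-numbered libraries correlated at -0.035 to 0.0201 and 1 of 4 knockdown libraries correlated best with its own number. With a replicate block, 2762 genes were higher and 2771 lower, the members called were 2 higher and 2 lower, and Lifr had a log2 fold change of -0.83. Depth limits Il6, with at most 1 count in any library, and the knockdown level of Osmr, with 3 of 4 libraries at or under the 3 counts that a count of 0 allows.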
